A study of Mus musculus with 2 samples.

Results

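A set of 8 mouse genes was followed: *Adgre4*, *Ace*, *Nr4a1*, *Treml4*, *Ear2*, *Cx3cr1*, *Spn* and *Cd177*. They were taken by symbol from the 31053 genes of the count tables, each symbol matched 1 entry, and all 8 had enough counts to be compared. The list joins genes known from nonclassical monocytes with *Nr4a1*, the transcription factor on which these monocytes depend. It was made knowing that *Adgre4* and *Nr4a1* had lower levels in the control library, so those differences are given as a description only.

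Leukocytes positive for CD45 had been sorted on day 4 from melanomas in C57BL/6 hosts 8 weeks old and profiled with the 10x Genomics 3′ v3 chemistry, which counts transcripts by unique molecular identifiers (UMIs). The tumors of both groups lacked *Ptgs*, the genes of the cyclooxygenases that make prostaglandins, according to the sample titles and the design text, whereas the genotype field calls the tumor cells wildtype. Control hosts were untreated. NK cell-depleted hosts received 200 µg anti-NK1.1 (clone PK136) and 30 µg antiASIALO GM1 per mouse on day 0 and day 2. The tumors were pooled by group, and a small share of parental melanoma cells was added to the sorted cells of each sample. Each group is 1 library, no value has a replicate, and no test between the groups can be made. Every interval below is an exact 95% interval that covers counting error only.

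Blood monocytes of the mouse come in a classical form, which carries Ly6C and the chemokine receptor Ccr2 and enters inflamed tissue, and a nonclassical form with little Ly6C and much Cx3cr1, which patrols the vessel wall. Classical monocytes can turn into nonclassical ones, a step that needs *Nr4a1*. *Nr4a1* encodes an orphan nuclear receptor and is also an immediate early gene, transcribed within a short time of many stimuli in many cell types. Among the other members, *Adgre4* encodes an adhesion G protein-coupled receptor of myeloid cells, *Ace* the angiotensin-converting enzyme, *Treml4* a receptor of the TREM family, *Ear2* a secreted ribonuclease, *Cx3cr1* the fractalkine receptor, *Spn* the sialoglycoprotein CD43 of lymphocytes and monocytes, and *Cd177* a surface glycoprotein best known from neutrophils.

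All 8 genes are protein-coding in the GENCODE M21 annotation of GRCm38, the build of the files. *Adgre4* (chr17:55749984-55853662, plus strand) and *Treml4* (chr17:48264295-48275360, plus strand) lie on one chromosome. *Spn* (chr7:127132232-127137823) and *Cd177* (chr7:24743983-24760311) lie on the minus strand of another. *Nr4a1* lies at chr15:101254269-101274795, *Ace* at chr11:105967945-105989964 and *Ear2* at chr14:44102654-44103534, all on the plus strand, and *Cx3cr1* at chr9:119901616-120069879 on the minus strand. *Ear2* belongs to a family of near-identical copies whose reads can be split or lost in counting, so its level is uncertain. Of these copies *Ear1* had 0 UMIs in control and 4 in depleted cells, *Ear6* 0 and 1, *Ear10* 1 and 0, and *Ear14* none.

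Because *Nr4a1* had the most UMIs of the set and *Adgre4* the lowest ratio between the libraries, their promoters are shown, with that of *Treml4*, from RefSeq (GRCm38.p6), as the 250 bases before and 50 bases after the RefSeq start, all 3 on the plus strand. For *Nr4a1* this start lies inside the GENCODE span given above, downstream of the outermost start. Capitals mark matches to letters searched on both strands: TGACG, a core shared by sites of CREB-type factors; TGCGTCA, which holds it in reverse complement and was added after the *Nr4a1* promoter had been read; and AGGTCA, a core shared by sites of nuclear receptors, which is part of AAAGGTCA, the element that Nr4a1 itself binds.
Nr4a1, chr15:101266596-101266895: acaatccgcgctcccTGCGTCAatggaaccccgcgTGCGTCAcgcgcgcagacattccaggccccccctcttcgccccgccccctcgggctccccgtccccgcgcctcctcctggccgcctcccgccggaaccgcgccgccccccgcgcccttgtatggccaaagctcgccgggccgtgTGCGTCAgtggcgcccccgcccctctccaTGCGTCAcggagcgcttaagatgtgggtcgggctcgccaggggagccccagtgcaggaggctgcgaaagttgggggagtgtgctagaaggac
Adgre4, chr17:55749734-55750033: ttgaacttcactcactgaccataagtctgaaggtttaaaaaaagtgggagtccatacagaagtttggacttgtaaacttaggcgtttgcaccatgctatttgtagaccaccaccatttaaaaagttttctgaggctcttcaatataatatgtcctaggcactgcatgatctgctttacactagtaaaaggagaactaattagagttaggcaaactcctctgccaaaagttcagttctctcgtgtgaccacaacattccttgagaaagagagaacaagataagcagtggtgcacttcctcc
Treml4, chr17:48264045-48264344: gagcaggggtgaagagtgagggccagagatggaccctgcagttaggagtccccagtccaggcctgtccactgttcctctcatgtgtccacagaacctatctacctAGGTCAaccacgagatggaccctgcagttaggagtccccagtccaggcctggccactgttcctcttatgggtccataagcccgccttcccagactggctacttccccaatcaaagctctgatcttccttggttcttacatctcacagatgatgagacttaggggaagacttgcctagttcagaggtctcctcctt

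The *Nr4a1* promoter held TGCGTCA 4 times, starting 235, 215, 71 and 42 bases before the start site, and every TGACG it held lay within one of these. TGCGTCA occurred in 2.12% and TGACG in 20.8% of the 32851 mouse promoters of the same length. No window of the other 7 genes held either. AGGTCA, present in 16.3% of promoters, occurred once in *Treml4* and once in the window of a second *Ace* start, and AAAGGTCA, present in 1.51%, in none of the 9 windows of the 8 genes. A match is a run of letters in these windows and says nothing of binding.

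Cells with 500 to 15000 UMIs and 200 to 4000 genes were kept unless mitochondrial UMIs exceeded 10%, which left 5292 of 6115 control cells and 4506 of 5536 NK cell-depleted cells. They held 24810009 and 23245982 UMIs, with a median of 4170 and 4893 UMIs and 3.01% and 3.55% mitochondrial UMIs per cell. The libraries shared 5 barcodes. Levels are CPM, UMIs scaled to the same total in each library or cluster, and ratios are control over NK cell-depleted. Over the 12677 genes with at least 20 UMIs the median log2 ratio was 0.01.

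The levels of *Adgre4*, *Cd177*, *Nr4a1*, *Ace* and *Treml4* were lower in the control library. *Adgre4* had 314 UMIs in control and 951 in NK cell-depleted cells, or 12.7 and 40.9 CPM, a ratio of 0.309 (interval 0.271 to 0.352). *Cd177* had 209 and 480 UMIs, 8.42 and 20.6 CPM, a ratio of 0.408 (0.345 to 0.481). *Nr4a1*, by far the most abundant member, had 12333 and 22862 UMIs, 497 and 983 CPM, a ratio of 0.505 (0.494 to 0.517). All 3 intervals lay well below 1, and *Nr4a1*, with the most UMIs, had the narrowest. *Ace* had 239 and 429 UMIs, 9.63 and 18.5 CPM, with a ratio of 0.522 (0.444 to 0.613). *Treml4* was the scarcest member, at 134 and 186 UMIs or 5.40 and 8.00 CPM, and its ratio of 0.675 (0.536 to 0.847) had the widest interval of the 8 relative to its size.

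The other 3 genes did not share this direction. *Ear2* had 4301 and 3747 UMIs, 173 and 161 CPM, a ratio of 1.08 (1.03 to 1.12). *Cx3cr1*, the receptor most used to track nonclassical monocytes, had 3872 and 3736 UMIs, 156 and 161 CPM, and its ratio of 0.971 had an interval (0.928 to 1.02) that held 1. *Spn* was higher in the control, with 1173 and 671 UMIs, 47.3 and 28.9 CPM, a ratio of 1.64 (1.49 to 1.80). NK cells carry CD43, and 462 of the 1173 control UMIs of *Spn* lay in NK-like cells, of which the depleted library had 1. Without NK-like cells its levels were 30.3 and 28.9 CPM, a ratio of 1.05 (0.943 to 1.17).

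A gene was counted as lower or higher when its level differed by at least 1.5-fold and the interval left out 1. By this rule 4 of the 8 members were lower in the control, against 3.74% of all genes, and 1 was higher, against 7.49%. The lower share includes *Adgre4* and *Nr4a1*, whose direction was known when the list was made. The members' median log2 ratio was −0.75. At 2-fold, 2 members (*Adgre4* and *Cd177*) were lower and none higher, against 1.54% and 3.56% of all genes.

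**Figure D1:**
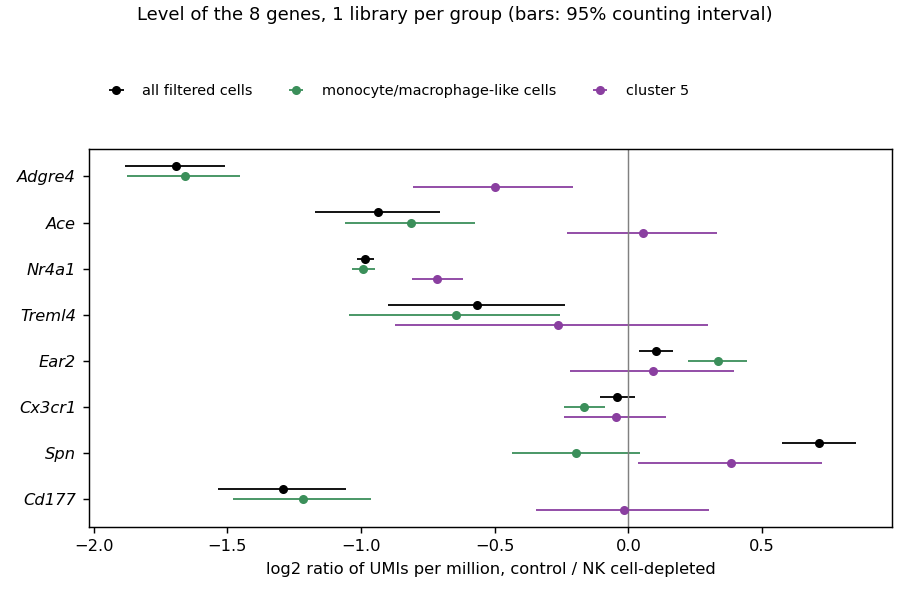
Log2 ratio of the level in CPM, control over NK cell-depleted, for the 8 genes (rows) in all filtered cells, in monocyte/macrophage-like cells and in cluster 5; points are ratios between 1 library per group and bars 95% counting intervals. *Adgre4* lies lowest at −1.69 in all cells, *Spn* lies at 0.71 in all cells and −0.20 in monocyte/macrophage-like cells, and in cluster 5 the intervals of 5 genes (*Ace*, *Treml4*, *Ear2*, *Cx3cr1* and *Cd177*) cross 0.

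The share of cells with at least 1 UMI was compared after every cell had been thinned to 2000 UMIs, which left 4084 control and 3567 depleted cells and left out 1208 and 939 shallower ones, nearly all neutrophil-like cells among them. *Adgre4* was detected in 112 control cells (2.74%) and 267 depleted cells (7.49%), a ratio of 0.366 (0.291 to 0.459). For *Cd177* the shares were 1.89% and 4.04% (ratio 0.467, 0.349 to 0.620), and for *Ace* 1.84% and 3.03% (0.607, 0.446 to 0.822). In these 3 genes the UMIs per positive cell differed less than the shares: they were 1.22 and 1.33 for *Adgre4*, 1.23 and 1.19 for *Cd177*, and 1.40 and 1.80 for *Ace*. This value cannot fall below 1, so in genes this scarce a difference in level shows mostly in the share. Unthinned, it was 1.40 and 1.69 for *Adgre4*, 1.41 and 1.51 for *Cd177*, and 1.65 and 2.12 for *Ace*.

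*Nr4a1* differed in both respects, with 43.6% and 62.9% positive cells (ratio 0.693, 0.650 to 0.737) and 2.18 and 3.17 UMIs per positive cell. Cells with 5 or more *Nr4a1* UMIs of their 2000 made up 3.99% and 14.3%. *Treml4* was found in 43 and 58 cells, 1.05% and 1.63% (0.648, 0.426 to 0.977), an interval that came to hold 1 when NK-like cells were left out (0.700, 0.460 to 1.06). *Ear2* had equal shares of 11.5%, and *Cx3cr1* 19.7% and 23.0% (0.856, 0.776 to 0.945). *Spn* had 8.10% and 5.66% (1.43, 1.20 to 1.71), and 0.995 as the ratio without NK-like cells. Unthinned shares were 4.25% and 12.5% for *Adgre4*, 2.80% and 7.06% for *Cd177*, 2.74% and 4.48% for *Ace*, 58.9% and 75.7% for *Nr4a1*, 2.25% and 3.06% for *Treml4*, 13.8% and 14.6% for *Ear2*, 26.2% and 31.5% for *Cx3cr1*, and 14.4% and 10.2% for *Spn*.

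Free RNA gives such counts in cells that do not express a gene. Cells of cluster 15, led by *Cyr61* and *Prkg2* and with only 44.5 and 19.7 *Ptprc* (CD45) CPM, served as a reference (58 and 69 cells, median 1644 and 2034 UMIs). They held no UMI of *Ace*, *Treml4*, *Ear2*, *Spn* or *Cd177* in either library, which allows shares of up to 5.17% and 4.35% when 3 cells are taken as the limit of a count of 0 (exact upper bounds 6.16% and 5.21%), and *Adgre4* in 0 and 1 of them (1.45%). *Cx3cr1* was found in 0 and 2 of these cells (2.90%). *Nr4a1* was found in 3 (5.17%) and 12 (17.4%) of them, with intervals of 1.08% to 14.4% and 9.32% to 28.4% that overlap. With the level of cluster 15 subtracted in each library, the log2 ratio of *Nr4a1* was −0.88, against −0.98 without. B-like cells (56 and 37 cells, median 1596.5 and 1682 UMIs) had no UMI of *Adgre4*, *Ace*, *Treml4*, *Ear2* or *Cd177*, with limits of 5.36% and 8.11% by the same rule of 3 cells (exact upper bounds 6.38% and 9.49%), but 58.9% and 59.5% of them had *Nr4a1*. As *Nr4a1* is transcribed in many cell types, cluster 15 and B-like cells may express it themselves. Their *Nr4a1* counts and the subtraction therefore do not measure its free RNA.

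**Figure D2:**
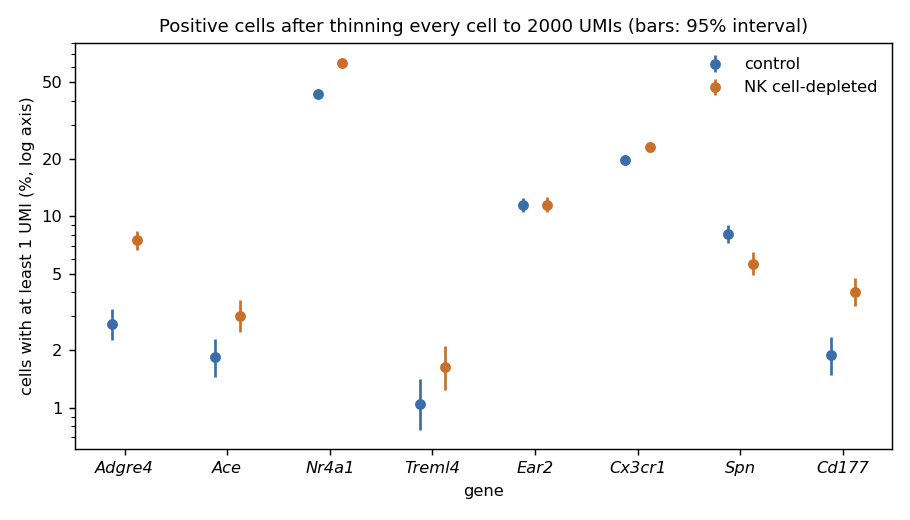
Percentage of cells with at least 1 UMI of each gene (log axis) after thinning to 2000 UMIs, in the control (4084 cells) and NK cell-depleted library (3567 cells); bars are exact 95% binomial intervals. The bars of *Adgre4*, *Ace*, *Nr4a1*, *Cx3cr1*, *Spn* and *Cd177* lie apart, and those of *Treml4* and *Ear2* overlap. *Spn* is the gene with the higher control share.

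Cells were then clustered on both libraries together without the 8 genes and without 14 immediate early genes, which gave 20 clusters. Clusters are called by number and their leading genes, and a cell type "-like" only by fixed markers. The cluster in which *Ace* was highest was cluster 5 (258 control and 467 depleted cells), led by *Chil3*, *Ldlrad3* and *Hp*. It held 66.9% and 75.1% of all *Ace* UMIs, 56.9% and 52.5% of *Cd177*, 40.4% and 39.5% of *Adgre4* and 26.9% and 48.9% of *Treml4*, but only 9.32% and 17.2% of *Nr4a1* and 3.16% and 7.13% of *Ear2*. As *Chil3* itself differed between the libraries, no ratio of the size of this cluster between them is given.

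Cluster 5 as a whole could not be called nonclassical monocytes. Of the nonclassical markers outside the set 3 were among its first 50 genes, but *Ly6c2*, which is low in nonclassical monocytes, stood at 1883 and 1564 CPM, no lower than in cluster 6, led by *Vcan* and *Ly6c2* (1726 and 1346). *Ccr2* stood at 1890 and 2023 in cluster 5. At a clustering resolution of 2 its largest piece (158 and 356 cells) had 6 nonclassical markers among its first 50 genes and was named nonclassical monocyte-like by the same rule. At the resolution used here it is called cluster 5, and it belongs with 7 other clusters to the monocyte/macrophage-like cells (2746 and 2681 cells).

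Outside cluster 5 the members parted. *Adgre4* and *Cd177* were next highest in cluster 6 among monocyte/macrophage-like clusters, at 40.3 and 85.1 and at 32.0 and 49.1 CPM. *Adgre4* also reached 349 CPM in the 69 eosinophil-like cells of the depleted library, from 16 UMIs, with 0 UMIs in the 13 such control cells. *Ear2* was highest in the clusters led by *Retnla*, cluster 12 (1120 and 1044) and cluster 14 (765 and 675), several times its 132 and 124 in cluster 5. *Cx3cr1* was spread over cluster 5 (323 and 334), cluster 10 (235 and 286), cluster 3 led by *Pf4* (311 and 273) and cluster 2 led by *Spint1* (267 and 246). *Spn* was highest in NK-like cells of the control (341) and T-like cells (335 and 245), and *Cd177*, known from neutrophils, stood at only 25.7 and 19.6 in the neutrophil-like cluster 4.

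*Nr4a1* was the one member found in every cluster. Its highest levels were in neutrophil-like cells (2675 and 3139 CPM) and in eosinophil-like cells (1145 and 3554), above cluster 5 (1115 and 1829). The eosinophil-like control level rests on 11 UMIs. *Treml4* was also found in neutrophil-like cells, at 23.3 and 22.9 CPM from 10 and 14 UMIs.

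**Figure D3:**
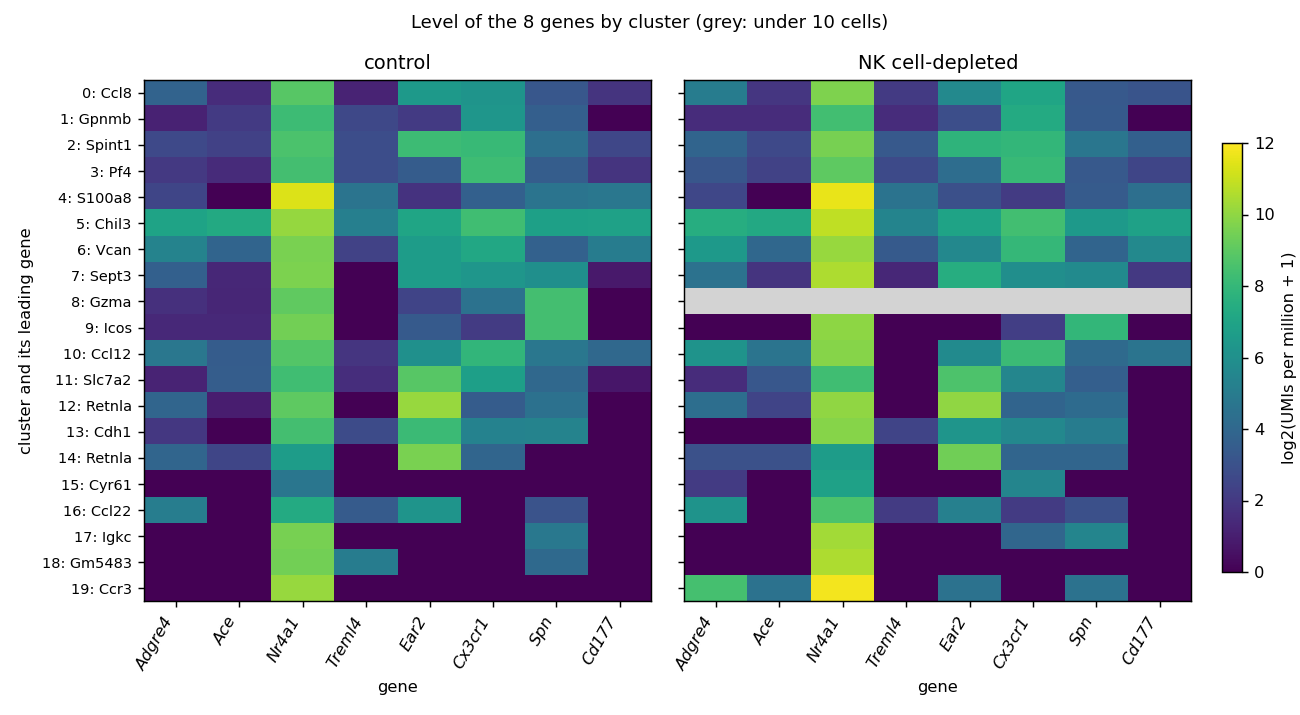
Level of the 8 genes, as log2(CPM + 1), in the 20 clusters (rows, with their leading gene) of the control (left) and NK cell-depleted library (right); grey marks a cluster with under 10 cells. Cluster 5 is the row in which all 8 genes are above 30 CPM in both libraries, *Nr4a1* is above 0 in every row, and *Ear2* peaks in clusters 12 and 14.

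Levels within a cluster do not depend on how many cells it had, but they can depend on the mix of cells inside it. Of the 18 clusters with at least 20 cells in both libraries, *Nr4a1* was lower in the control in 17, beyond its interval in 15, with log2 ratios from −2.03 to 0.01. *Adgre4* was lower in all 9 that held at least 20 UMIs of it, beyond the interval in 8, with log2 ratios from −1.48 to −0.41. The direction of both genes in the whole library was known when the list was made. Clusters of 1 library are not replicates, and the same counts over all genes are not reported here. *Cd177* was lower in 5 of 6, beyond the interval in 3. In contrast, *Ace* was lower in 3 of 5 and *Treml4* in 4 of 6 clusters, and none of these ratios lay beyond its interval. *Ear2* was higher in 10 of 12 (5 beyond the interval) and lower in 2, *Cx3cr1* lower in 7 of 11 (3 beyond) and higher in 4 (2 beyond), and *Spn* higher in 8 of 11 (2 beyond).

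In cluster 5 the intervals of 5 members held a log2 ratio of 0. *Ace* stood at 155 and 149 CPM (log2 ratio 0.06, −0.23 to 0.33), *Cd177* at 115 and 117 (−0.02, −0.35 to 0.30) and *Treml4* at 34.9 and 42.2 (−0.26, −0.87 to 0.30). *Cx3cr1* (−0.05) and *Ear2* (0.09) likewise had intervals that held 0. *Nr4a1* was lower in the control, with 1115 and 1829 CPM (−0.71, −0.81 to −0.62), and so was *Adgre4*, with 123 and 174 (−0.50, −0.80 to −0.21). In the largest piece of cluster 5 at resolution 2 the log2 ratios were −0.48 for *Nr4a1* and −0.24 for *Adgre4*. *Spn* was slightly higher at 112 and 86.3 (0.38, 0.03 to 0.72). By the 1.5-fold rule 1 member, *Nr4a1*, was lower and none higher here, against 4.01% and 2.84% of the 8133 genes tested in the cluster. The direction of *Nr4a1* in the whole library was known when the list was made. No member passed 2-fold, against 1.45% lower and 1.06% higher.

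The monocyte/macrophage-like cells together gave ratios close to those of all cells: −1.66 for *Adgre4*, −1.22 for *Cd177*, −0.99 for *Nr4a1*, −0.81 for *Ace* and −0.64 for *Treml4* on the log2 scale. These 5 members were lower by the 1.5-fold rule, against 2.96% of 11536 genes, and none higher, against 6.27%. At 2-fold, 2 members (*Adgre4* and *Cd177*) were lower and none higher, against 0.641% and 2.61%. Both counts include genes whose direction was known when the list was made, *Adgre4* in each and *Nr4a1* in the first. *Ear2* had 0.33, *Cx3cr1* −0.17 and *Spn* −0.20. The class was made up differently, with clusters 3, 1 and 0 largest in the control and clusters 0, 6 and 5 in the depleted library. *Chil3*, which differed between the libraries, is among the first 10 genes of clusters 5 and 6, so the sizes of these clusters may depend on it. With clusters weighted equally in both libraries, the all-cell log2 ratios came to −0.06 for *Ace*, −0.23 for *Treml4*, −0.37 for *Cd177*, −0.84 for *Adgre4* and −0.70 for *Nr4a1*. These cover the 18 clusters with at least 20 cells in both libraries, which leaves out NK-like and eosinophil-like cells.

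Per cell, *Ace*, *Adgre4* and *Treml4* went together. Of the 75 *Ace*-positive control cells 32.0% (21.7 to 43.8) also had *Adgre4*, against 2.20% of *Ace*-negative cells. In the depleted library it was 48.1% (38.4 to 58.0) of 108 against 6.22%. Cells positive for both *Ace* and *Treml4* were 11.4 times as many as the 2 shares would give in each library, from 9 and 20 cells, those for *Ace* and *Adgre4* 11.7 and 6.43 times, and those for *Ace* and *Spn* 3.29 and 5.56 times. *Nr4a1* was present in 74.7% and 88.0% of *Ace*-positive cells against 43.0% and 62.2% of the rest. *Cd177* was found in 13.3% (6.58 to 23.2) and 8.33% (3.88 to 15.2) of *Ace*-positive cells, against 1.89% and 4.04% of all thinned cells. *Ear2* and *Cd177* were found together less often than expected, at 0.567 and 0.544 times, from 5 and 9 cells.

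Since *Ace* lay mostly in cluster 5, the pairs were counted again inside it. *Spn* and *Treml4* still coincided 3.75 and 3.70 times as often as their shares would give, from 9 and 17 cells, *Ace* and *Ear2* 2.37 and 2.62 times, *Ace* and *Treml4* 2.60 and 3.01 times, and *Ace* and *Adgre4* 1.72 and 2.41 times. *Spn* was found in 36.0% and 38.3% of *Ace*-positive cells against 10.8% and 7.35% of *Ace*-negative cells. *Spn* and *Ear2*, most of whose UMIs lay elsewhere, were thus enriched in *Ace*-positive cells of this cluster. *Cx3cr1* and *Nr4a1* were widespread there, at 1.24 and 1.33 times and 1.17 and 1.12 times with *Ace*. *Cd177* stood apart: 18.0% and 6.17% of *Ace*-positive cells had it against 22.2% and 20.2% of *Ace*-negative cells, or 0.845 and 0.348 times the expected number, and with *Spn* it had 0.481 and 0.573 times, from 4 and 6 cells. In the control these *Cd177* shares of *Ace*-positive (8.58% to 31.4%) and *Ace*-negative cells (16.5% to 28.7%) overlap within their intervals.

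**Figure D4:**
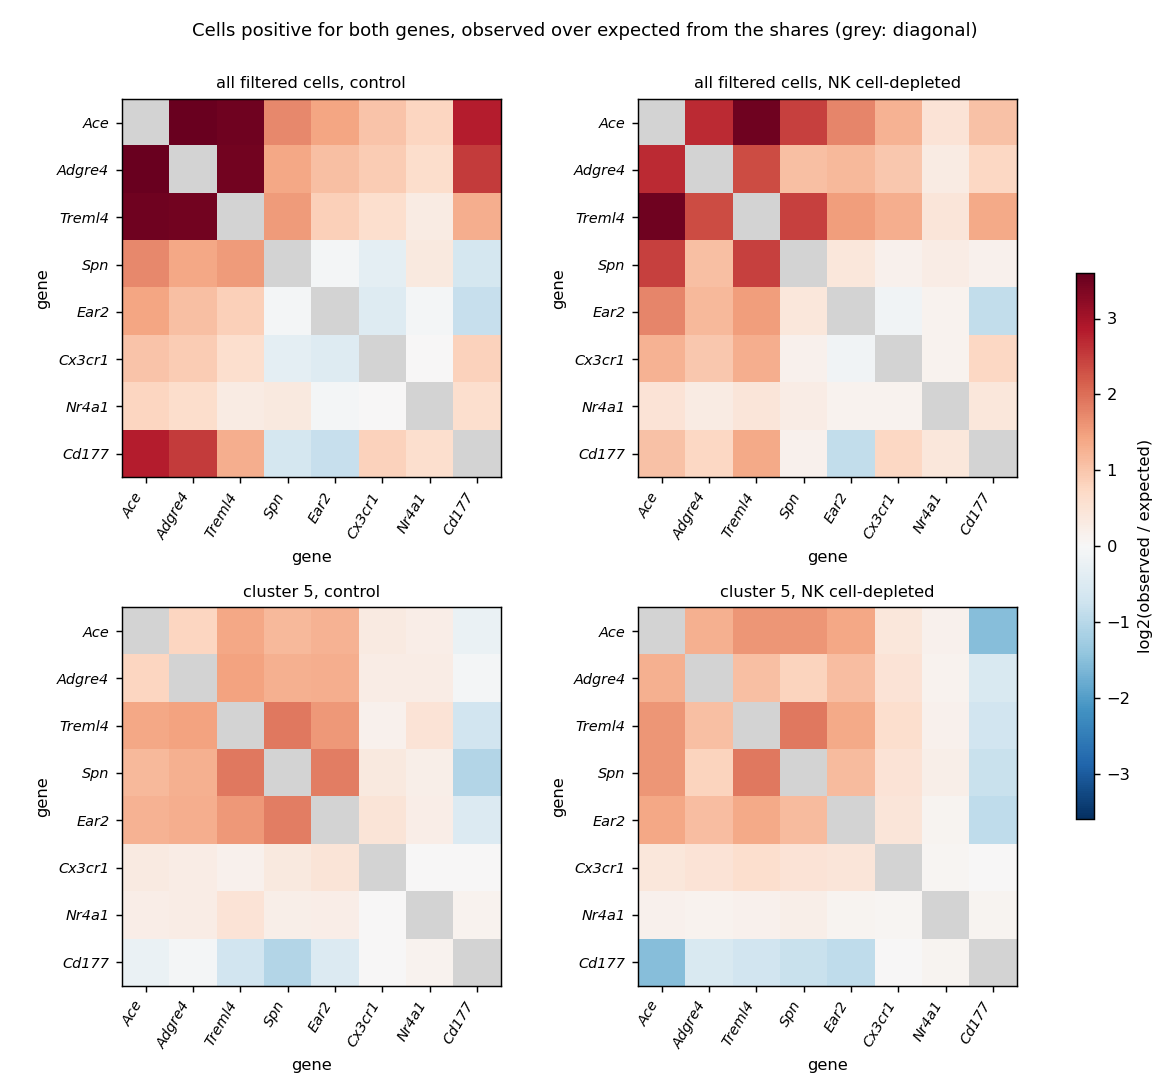
Cells positive for both genes of a pair relative to the number the 2 shares would give, as log2(observed / expected), in all filtered cells (top) and in cluster 5 (bottom) of the control (left) and NK cell-depleted library (right), thinned to 2000 UMIs; grey marks the diagonal. *Ace*, *Adgre4*, *Treml4*, *Spn* and *Ear2* form a red block within cluster 5 in both libraries, and *Cd177* is blue or near white with each of them.

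Few cells carried several members at once. Of *Adgre4*, *Ace*, *Treml4*, *Spn* and *Cd177*, the members detected in under 10% of cells, at least 2 were found in 68 control cells (1.67%, 1.30 to 2.11) and 115 depleted cells (3.22%, 2.67 to 3.86). At least 3 were found in 21 (0.514%) and 36 (1.01%), of which 90.5% and 94.4% lay in cluster 5, and at least 4 in 6 and 11, all in that cluster. No cell had all 5, which allows shares of up to 0.0735% and 0.0841% by the rule of 3 cells (exact upper bounds 0.0903% and 0.103%).

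The *Ace*-positive cells of cluster 5 were compared with the others, at 2000 UMIs per cell, for genes outside the set. Of 9 other nonclassical monocyte genes with enough UMIs in both libraries, 7 were higher in *Ace*-positive than in *Ace*-negative cells of the cluster in both, by the 1.5-fold rule, and none lower, against 1.52% of 3740 genes higher in both. By library, 7 of 9 were higher in the control, where 4.48% of genes were, and 10 of 11 in the depleted library, where 5.2% were. Among these, *Itgal*, the integrin chain with which nonclassical monocytes crawl, had 2.16 UMIs per *Ace*-positive and 0.737 per *Ace*-negative control cell, and 3.02 and 0.976 in the depleted library. *Fcgr4*, an IgG Fc receptor, was 7.76 and 7.92 times as high and *Dusp16*, a phosphatase of MAP kinases, 6.90 and 5.97 times. *Pglyrp1*, *Cd36*, *Gngt2* and *Cd300ld* completed the 7. The regulators of nonclassical monocytes did not follow as a list. Of 10 tested, 4 were higher and 2 lower in *Ace*-positive control cells, and 1 was higher and none lower in the depleted library. Of all genes, 3.52% and 4.71% were lower by library. Only *Pou2f2* was higher in both libraries, at 2.13 and 2.72 times.

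Classical monocyte genes went the other way, with 7 of 10 lower in *Ace*-positive cells in both libraries and none higher, against 0.989% of genes lower in both. By library these were 7 of 10 in the control (3.52% of genes) and 9 of 10 in the depleted library (4.71%). *Ly6c2* had 2.18 UMIs per *Ace*-positive and 4.08 per *Ace*-negative control cell, a ratio of 0.534 (0.433 to 0.653), and 1.74 and 3.36 in the depleted library, a ratio of 0.519 (0.433 to 0.617). *Ccr2* had ratios of 0.469 and 0.365, *Vcan*, a proteoglycan, 0.312 and 0.211, and *F13a1*, a coagulation factor chain, 0.338 and 0.243. The *Ace*-positive cells, 50 of 244 and 81 of 462, differed in this way from the rest of the cluster, with *Ly6c2* lower but not at 0. Splitting the same cells by *Cd177* gave no gene of either list that differed in both libraries, and 1 and 3 of the 3740 genes did so upward and downward (0.0267% and 0.0802%). By library, none of the nonclassical genes was higher in *Cd177*-positive cells, and 1 of 9 and 3 of 11 were lower. Classical monocyte genes were higher in 2 and 1 of 10, and none was lower. Of 5 neutrophil genes in the control none was higher and 1 lower, and of 6 in the depleted library 3 were higher and 1 lower. The shares of all genes were 1.86% higher and 2.29% lower in the control and 1.58% and 2.22% in the depleted library.

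Correlations of *Nr4a1* per cell were higher with several immediate early genes, which have more UMIs, than with the other members. Across the 4084 and 3567 thinned cells, Pearson's r of *Nr4a1* was 0.41 and 0.42 with *Junb*, 0.35 and 0.38 with *Btg2*, 0.31 and 0.34 with *Zfp36* and 0.30 and 0.31 with *Dusp1*, against 0.13 and 0.17 with *Ace* and 0.14 and 0.16 with *Adgre4*. The cells of a library share depth and free RNA, and these values are a description. Inside cluster 5, r was 0.45 and 0.36 with *Junb*, 0.48 and 0.32 with *Dusp1*, 0.29 and 0.22 with *Adgre4* and 0.04 and 0.00 with *Cd177*. The contrast did not hold for the whole lists in either set of cells. Across all thinned cells *Jun* had 0.065 and 0.002 and *Ier3* 0.11 and 0.06, below *Ace* and *Adgre4*. In cluster 5 *Spn* had 0.24 and 0.29, *Ace* 0.22 and 0.25 and *Ear2* 0.23 and 0.19. These lay above *Fosb* (0.10 and 0.07), *Jun* (0.01 and −0.05) and *Ier3* (0.00 and 0.03). Across 36 profiles (1 per cluster and library with at least 50 cells, 9522 genes), the genes most like *Nr4a1* were *Junb* (r = 0.93), *Btg2* (0.92), *Kdm6b* (0.92), *Sik1* (0.91) and *Ddx3x* (0.91). For *Adgre4* they were *Camkk2* (0.80), *Actr3* (0.75), *Capzb* (0.74), *Arpc4* (0.73) and *Daxx* (0.72), and *Nr4a1* with *Adgre4* had r = 0.37.

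**Figure D5:**
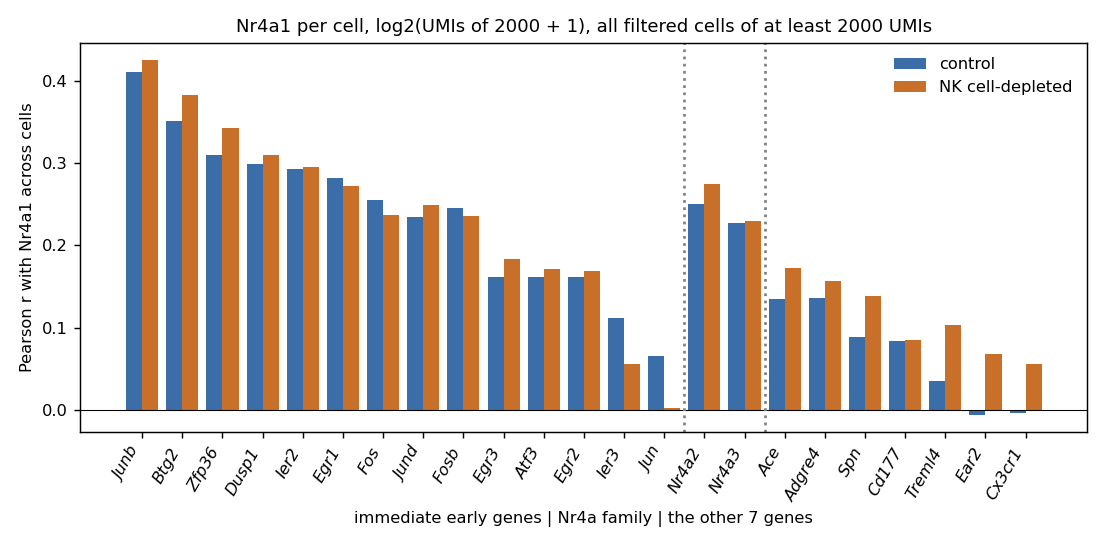
Pearson's r across cells between *Nr4a1* and the immediate early genes, its 2 family members and the other 7 genes, in log2(UMIs of 2000 + 1), for the control and NK cell-depleted library. *Junb* is highest at 0.41 and 0.42, and *Ear2* and *Cx3cr1* lie near 0 in the control.

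Immediate early genes were counted beside *Nr4a1*. Of the 14 genes 4 passed the 1.5-fold rule downward in all filtered cells, where 3.74% of all genes did, and none upward, against 7.49%, with a list median of −0.36: *Egr3* had a ratio of 0.574 (56.9 and 99.2 CPM), *Dusp1*, a phosphatase that ends MAP kinase signals, 0.619, *Zfp36*, which destabilises cytokine mRNAs, 0.658, and *Junb* 0.663. The family members *Nr4a2* and *Nr4a3* had ratios of 0.715 and 0.776 and did not pass. Within cluster 5, where 4.01% of all genes passed downward, 2 of the 14 did (*Egr3* at 0.493 and *Dusp1* at 0.666), as did *Nr4a2* (0.601). Immediate early genes can be induced during tissue digestion, and its part in the *Nr4a1* difference was not tested. Neutrophil-like cells are rich in *Nr4a1*. Of 9 neutrophil genes 5 were lower in all cells (*Cxcr2*, *Retnlg*, *G0s2*, *Il1r2* and *Mmp9*, list median −0.60), against 3.74% of all genes. In monocyte/macrophage-like cells 0 of the 9 were lower (median −0.11), and *Nr4a1* had −0.99 there. In cluster 5 none was lower and 3 were higher, *S100a8* (1.64), *S100a9* (1.55) and *Hcar2* (2.17), against 2.84% of genes. The part of neutrophil RNA in the *Nr4a1* difference was not tested.

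In all cells, where 3.74% of genes were lower and 7.49% higher, regulators and partners gave few calls. Of 10 regulators of nonclassical monocytes 1 was lower, *Cebpb* (0.627), a transcription factor that these cells need, and none higher. Of the 12 other nonclassical monocyte genes 1 was lower, *Nxpe4* (0.561), with a list median of −0.05. In monocyte/macrophage-like cells 3 of the 12 were lower, *Itgal* (0.644), *Eno3* (0.658) and *Nxpe4* (0.538), with a median of −0.20, where 2.96% of genes were lower. In cluster 5 none was lower and 2 were higher, *Pglyrp1* (1.53) and *Fcgr4* (1.88), where 2.84% of genes were higher. Of 10 classical monocyte genes 3 were lower in all cells, *Chil3* (0.279), *Hp* (0.579) and *Ly6c2* (0.666). Among ligands, partners and relatives of the members, 14 of 21 could be compared in all cells: *Trem3* was lower (0.615) and *Trem2* (1.68) and *Pecam1* (1.92) higher, and *Cx3cl1*, the ligand of Cx3cr1, had only 27 and 33 UMIs.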

How the data were processed

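Sorted leukocytes of 2 groups were compared, 1 library each, with groups taken from the sample titles. The authors demultiplexed and aligned the reads with Cell Ranger (version 3.0.2 per the file headers, another in the study's methods) to mm10 and deposited UMI counts per gene and called cell, without normalization; a normalized table of the series was not used. The deposited tables hold 11651 barcodes, of which 9798 passed the study's filter. Its stated filter on reads was applied to UMIs.

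Counts were summed per library and scaled to CPM. Ratios had exact conditional binomial and shares Clopper-Pearson 95% intervals, which cover counting error of 1 library each. For shares and pairs, each cell was thinned to 2000 UMIs. Cells were clustered with scanpy 1.11.5 and leidenalg 0.10.2 (2000 variable genes, 15 components, 20 neighbors, resolution 1, seed 1), and a cluster was named from at least 3 of its markers among its first 50 genes, unless at least 2 markers of another type were among its first 10 and its own were no more there, a rule set after the clusters were seen. It left unnamed clusters 2, 7, 12, 15 and 18, with 21.1% of control and 20.4% of depleted cells. Scrublet marked 0 and 3 cells, too few to be credited, so leaving out the 265 and 225 cells of highest score was added after seeing the data. Cells over the upper limits were left out. Comparisons over all genes needed at least 20 UMIs, and calls 1.5-fold with the interval outside 1. The interval and ratio code was tested on simulated counts. The 8 genes, the gene lists and the alternatives were chosen with earlier results of these data known. All 8 genes are named, from each list those past the rule, at most 6 by UMI sum, and for Adgre4 and Nr4a1 the 5 most alike genes; genes split by Ace were named after their values were seen.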

Additional observations from a re-analysis of the deposited data

Results flagged for a closer look

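Some members differed in opposite directions between cell clusters. *Ear2* had a log2 ratio, control over NK cell-depleted, of −0.86 in cluster 7, led by *Sept3* and *Cd209a*, and of 1.89 in cluster 13, led by *Cdh1* and *Plet1*. *Cx3cr1* had −1.01 in cluster 1, led by *Gpnmb* and *Mmp13*, and 1.25 in cluster 11, led by *Slc7a2*. Each of these 4 ratios lay beyond its counting interval, but with 1 library per group the difference between clusters was not tested.

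Cells above the upper limits of the filter, 212 in the control and 353 in the depleted library, also held *Nr4a1*: 107 and 168 CPM, a ratio of 0.640 (0.583 to 0.701), the same direction as in the cells analysed. Other members had higher control levels in these cells: *Cx3cr1* with a ratio of 1.69 (1.40 to 2.04), *Spn* with 1.60 (1.06 to 2.40), *Ear2* with 1.32 (1.20 to 1.44) and *Treml4*, from 12 and 7 UMIs, with 2.79 (1.01 to 8.37), whereas *Treml4* had 0.675 and *Cx3cr1* 0.971 in the filtered cells.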

How the results depend on the processing

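No paired analysis was possible because each group has 1 library. Of 88 alternative ratios of level, 63 stayed within the counting interval of the reported value, 24 moved out of it and 1 changed the sign of a ratio whose interval had left out 0 (reversed), and of 40 alternative ratios of shares 36, 3 and 1 did so. *Cx3cr1*, whose interval held 0, changed sign in 3 of its moved values. In all filtered cells no alternative turned the direction of *Adgre4*, *Ace*, *Nr4a1*, *Treml4* or *Cd177*. With clusters weighted equally the log2 ratios were −0.84 for *Adgre4*, −0.062 for *Ace*, −0.70 for *Nr4a1*, −0.23 for *Treml4*, 0.24 for *Ear2*, −0.14 for *Cx3cr1*, 0.25 for *Spn* and −0.37 for *Cd177*, which by construction removes the difference in cluster makeup. It also leaves out the NK-like cluster 8 and the eosinophil-like cluster 19, as only the 18 clusters with at least 20 cells in both libraries were weighted. Without the upper limits they were −1.50 for *Adgre4*, −0.82 for *Nr4a1*, 0.20 for *Ear2*, 0.15 for *Cx3cr1* and 0.86 for *Spn*. As mean over cells they were −0.91 for *Nr4a1*, −0.0043 for *Ear2* (reversed), −0.13 for *Cx3cr1* and 1.15 for *Spn*. Thinned to 2000 UMIs they were −1.07 for *Nr4a1*, −0.21 for *Cx3cr1* and −1.04 for *Cd177*. Without NK-like cells they were 0.18 for *Ear2*, 0.027 for *Cx3cr1* and 0.070 for *Spn*, and the *Spn* share ratio was 0.995 (reversed). No cluster was led by melanoma markers, so the level of cluster 15 was subtracted in their place, which gave −0.88 for *Nr4a1* and 0.40 for *Cx3cr1*. The *Cx3cr1* value rests on 2 of 69 depleted cells of cluster 15, with 6.5 UMIs per positive cell, against 0 of 58 control cells. The *Nr4a1* share ratio was 0.649 at 1000 UMIs and 0.779 unthinned, and that of *Spn* 1.87 at 1000 UMIs. At resolution 2 the largest piece of cluster 5 gave −0.48 for *Nr4a1* and 0.41 for *Ear2*, and *Treml4* turned from −0.26 to 0.04, within its interval. Also within their intervals, *Adgre4* went from −0.50 to −0.24, *Spn* from 0.38 to 0.67 and *Ace* from 0.06 to 0.27. Unthinned, 58.6% and 69.8% of *Ace*-positive cells had *Cx3cr1*. At 2-fold, 195 of all genes and 2 members were lower and 451 and 0 higher, with 1 classical monocyte gene lower and 0 calls in the immediate early, regulator, other nonclassical, ligand and neutrophil lists. Beyond what was noted as construction, the cause of these shifts was not tested. Depth limits *Treml4*, with the fewest UMIs of the 8 genes.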

Other observations

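Of the neutrophil genes with enough UMIs, 3 of 5 were higher in *Ace*-positive than in *Ace*-negative cells of cluster 5 in the control and none lower, and in the depleted library 2 of 6 were lower and none higher. Of all genes, 4.48% were higher and 3.52% lower in the control, and 5.2% and 4.71% in the depleted library. *S100a8*, chosen after its values were seen, had 1.62 UMIs per *Ace*-positive and 0.366 per *Ace*-negative cell in the control (ratio 4.43, 3.18 to 6.18), but 0.123 and 0.344 in the depleted library (0.359, 0.168 to 0.682). *S100a9* had ratios of 4.90 and 0.249. How the UMIs of *S100a8* and *S100a9* were spread over the *Ace*-positive cells was not tested. Of 13 immediate early genes tested, 1 was lower in *Ace*-positive control cells and 4 in the depleted library, and none was higher. Only *Ier3* was lower in both. *Fos*, from the same list, was 0.923 times as high in *Ace*-positive as in *Ace*-negative control cells (0.797 to 1.07) and 0.633 times in the depleted library (0.567 to 0.704). The difference between the libraries was not tested in either case.

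Single cells held a sizeable part of the rarer members. The 5 cells with most *Ace* UMIs held 13.4% of all *Ace* UMIs in the control and 10.5% in the depleted library, and those for *Cd177* 11.5% and 5.42%. For *Nr4a1* they held 0.916% and 0.805%.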
